A study of Mus musculus with 6 samples.

Results

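The trophoblast regulators and placental genes described here are 10 genes chosen by name: the transcription factors Cdx2, Eomes, Elf5, Tfap2a, Tfap2c, Ets2, Hand1, Gcm1 and Esx1, and the placental gene Plac1. Each was read from the probe set that the array's annotation gives to that gene alone, and where there were several, from that with the highest mean. Of the 10, 9 were measured in this way, each by 1 probe set, among 19938 genes in all, and Gcm1 is not analysed here. The RNA came from HM1, an embryonic stem (ES) cell line from mouse, grown in 15% serum with leukemia inhibitory factor (LIF), a cytokine that keeps such cells undifferentiated. Cells transfected with a plasmid that expresses mouse Prmt6, an arginine methyltransferase of histones and other proteins (3 arrays, called Prmt6 overexpression below), were set against cells given the empty pCAGIP.puro vector (3 arrays, control). Both groups went through 3 days of puromycin at 1 ug/ml, so the controls also carry the resistance plasmid, and the labels describe selected populations, not isolated clones. The labels do not say whether replicates were separate cultures, so the p-values rest on a spread between arrays that may be technical only.

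Trophoblast is the outer cell lineage of the early embryo and forms most of the placenta, while ES cells come from the inner cell mass and contribute little to it. In trophoblast stem cells, which depend on FGF signalling, Cdx2, Eomes, Elf5, Tfap2c and Ets2 maintain the undifferentiated state. Hand1 drives the formation of trophoblast giant cells, Gcm1 that of syncytiotrophoblast in the labyrinth, where maternal and fetal blood exchange, and Esx1 acts in the labyrinth as well. Several of these genes also work elsewhere, Eomes and Hand1 in mesoderm, Cdx2 in the gut and Tfap2a in the neural crest.

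The values are deposited log2 signals, so a difference of 1 is a doubling of signal, and a low value does not separate signal from background because no detection calls were used here. Correlations over all probe sets were 0.986 to 0.990 within Prmt6 overexpression, 0.991 to 0.992 within control and 0.980 to 0.987 between the groups, and probe sets are not independent replicates. Prmt6 itself read 7.32, 7.40 and 7.33 in overexpression against 6.84, 6.58 and 7.12 in control, a rise of 0.50 ± 0.13 (log2 difference ± SE, limma adjusted p = 0.0406). That call ended without control replicate 1 (adjusted p = 0.116) or 2 (0.0954), or without overexpression replicate 1 (0.0893), 2 (0.119) or 3 (0.0788). It also ended with replicate number as a block in the fit (0.0615). Of the 11 ES cell markers measured, 0 rose, Nanog, Sox2 and Tdgf1 fell by 0.34, 0.29 and 0.35, and 8 did not pass, among them Pou5f1 at 0.19 ± 0.079. Over all genes, 7.05% rose and 3.25% fell. The Nanog, Sox2 and Tdgf1 calls ended without control replicate 1, 2 or 3, and of them only Nanog passed without overexpression replicate 2. With the replicate block they ended as well (limma adjusted p = 0.0615, 0.116 and 0.0666). Sox2 also did not pass without overexpression replicate 1 (0.0549) or 3 (0.105) or with arrays centred on medians (0.111). Bulk RNA cannot tell a change in the number of cells of a type from a change in RNA per cell.

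With Prmt6 overexpression, Hand1, Plac1, Eomes and Ets2 rose, by 1.97-fold, 1.74-fold, 1.47-fold and 1.46-fold. Cdx2, Tfap2a, Tfap2c, Elf5 and Esx1 did not pass the threshold of adjusted p under 0.05, and none of the 9 genes fell past it, while 6 were at an unadjusted p under 0.05 in limma. Thus 4 of 9 (44.4%) were called higher and 0 lower, where 7.05% of all genes were higher, 3.25% lower and 10.3% either. All 3 overexpression arrays lay above all 3 control arrays in 5 of the 9 genes and below them in 1 (66.7% together), against 17.0% above, 12.7% below and 29.7% together of all genes. The genes were chosen with earlier results of these data known, so these shares are descriptions and not a test. The median change of the 9 genes was 0.26 and that of all genes 0. Under each alternative tried, the same 4 genes passed wherever they were tested. Rises made up 68.5% of all calls, 80.4% with each array centred on its median and 65.1% under quantile normalization.

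**Figure D1:**
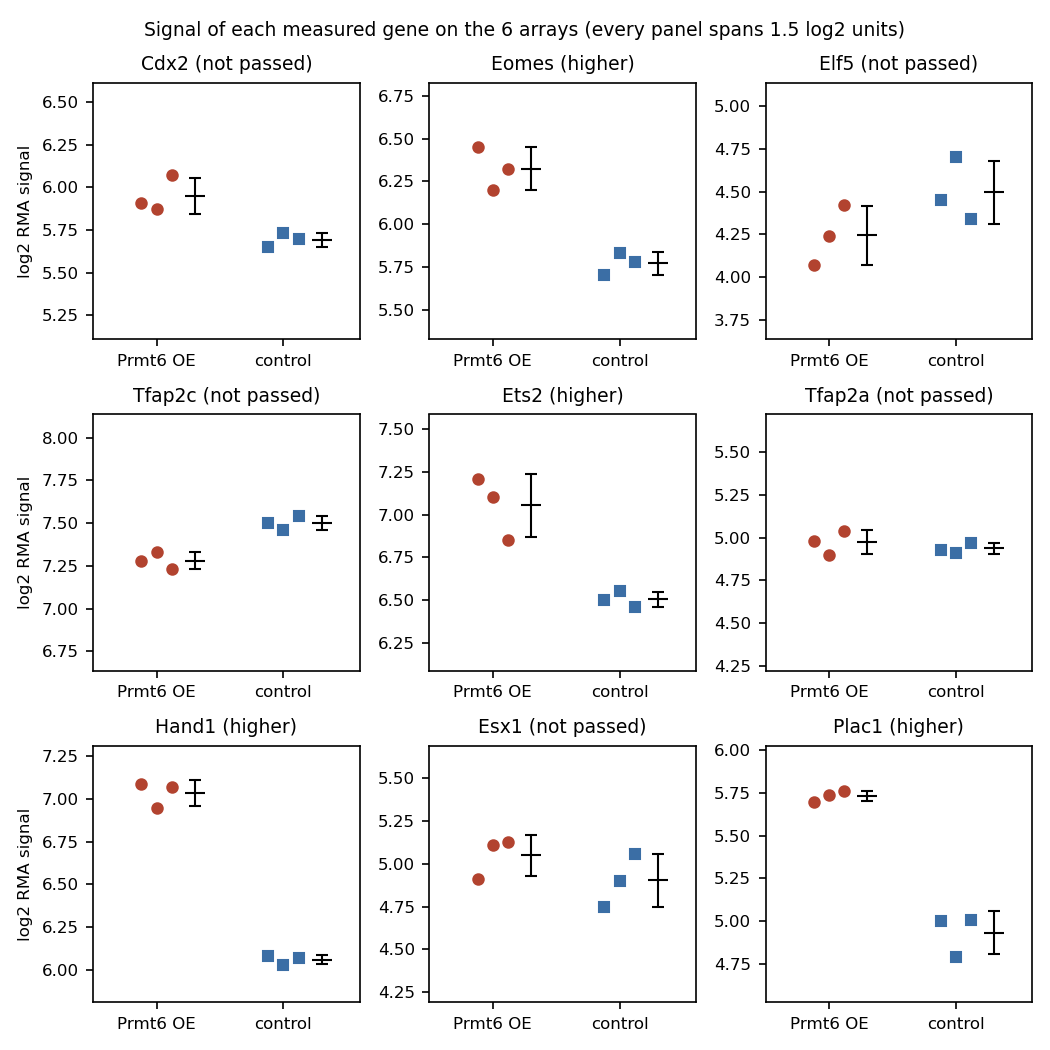
Log2 signal (vertical axis) of the 9 measured genes on the 3 Prmt6 overexpression arrays (circles) and the 3 control arrays (squares), with the mean and SD of each group beside its points and the same axis length in every panel. The groups are clear of each other for Hand1, Plac1, Eomes, Ets2, Cdx2 and Tfap2c, and overlap for Elf5, Tfap2a and Esx1.

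Cdx2, the caudal-type homeobox factor that starts the trophectoderm programme, read 5.91, 5.87 and 6.07 in overexpression against 5.65, 5.73 and 5.70 in control. The lowest overexpression array lay 0.14 above the highest control array. The difference of 0.26 ± 0.079 (SE, n = 3 per group) did not pass (limma adjusted p = 0.0810), and its 95% interval ran from 0.077 to 0.44. It passed with arrays centred on their medians (0.30, adjusted p = 0.0348) and under quantile normalization (0.31, 0.0313), where the median change of all genes was 0.047 and 0.024, and with the dimmest 30% of genes left out (0.0375).

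Eomes, a T-box factor needed for trophoblast stem cells and for the primitive streak, read 6.45, 6.20 and 6.32 in overexpression against 5.70, 5.83 and 5.78 in control. Its groups were 0.37 apart at their nearest arrays. The rise was 0.55 ± 0.086 (limma adjusted p = 0.00457, 95% interval 0.36 to 0.75), and 580 called genes rose by more.

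Ets2, a winged-helix factor of the ETS family that supports trophoblast stem cell self-renewal, read 7.21, 7.10 and 6.85 in overexpression against 6.50, 6.55 and 6.46 in control. All 3 overexpression arrays were higher, but replicate 3 less so, and the SD was 0.18 in overexpression and 0.045 in control. The rise was 0.55 ± 0.099 (limma adjusted p = 0.00973, 95% interval 0.32 to 0.78). With 1 array left out it ranged from 0.47 to 0.65 and the adjusted p from 0.00271 to 0.0424.

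Tfap2c and Tfap2a, which encode the AP-2 factors gamma and alpha, did not pass. Tfap2c read 7.28, 7.33 and 7.23 in overexpression against 7.50, 7.46 and 7.54 in control, so that all 3 overexpression arrays lay below. Its difference was -0.22 ± 0.069 (limma adjusted p = 0.0876, 95% interval -0.38 to -0.061). It passed without the dimmest 30% of genes (adjusted p = 0.0412), without those under the median (0.0207) and with a trended and robust variance prior (0.0372). With any 1 array left out Tfap2c did not pass (limma adjusted p from 0.109 to 0.254), nor with the replicate block (0.195). Tfap2a read 4.98, 4.90 and 5.04 in overexpression against 4.93, 4.91 and 4.97 in control, with overlapping groups. Its difference of 0.037 ± 0.071 (adjusted p = 0.814) had the narrow 95% interval of -0.13 to 0.20. The test of a difference between the changes of these genes was not made.

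Elf5, an ETS-family factor that is silenced by DNA methylation in the embryonic lineage, read 4.07, 4.24 and 4.42 in overexpression against 4.45, 4.70 and 4.34 in control. The groups overlapped, and this was the only one of the 9 whose mean lay under the 30th percentile of gene means. Its difference was -0.25 ± 0.12 (limma adjusted p = 0.242, 95% interval -0.53 to 0.021).

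Hand1, the basic helix-loop-helix factor of giant cells, had the largest rise of the 9. It read 7.09, 6.95 and 7.07 in overexpression against 6.08, 6.03 and 6.07 in control. The nearest arrays of the groups were 0.87 apart, while the SD was 0.076 in overexpression and 0.026 in control. The rise of 0.98 ± 0.072 (limma adjusted p = 7.77e-05, 95% interval 0.81 to 1.14) was exceeded by 214 called genes, and 98.9% of all genes changed upward by less or fell. With 1 array left out it ranged from 0.95 to 1.02.

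Esx1, an X-linked paired-like homeobox gene of the labyrinth, read 4.91, 5.11 and 5.13 in overexpression against 4.75, 4.90 and 5.06 in control, and the groups overlapped. Its difference of 0.15 ± 0.10 (limma adjusted p = 0.436) had a 95% interval of -0.086 to 0.38.

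Plac1, an X-linked gene for a membrane-associated protein made mainly by trophoblast, read 5.70, 5.74 and 5.76 in overexpression against 5.00, 4.79 and 5.01 in control. The groups did not overlap, and the SD was 0.031 in overexpression and 0.12 in control. The rise was 0.80 ± 0.082 (limma adjusted p = 0.000502, 95% interval 0.61 to 0.99). Its mean lay under the median of gene means, as did those of Cdx2, Tfap2a, Esx1 and Elf5.

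**Figure D2:**
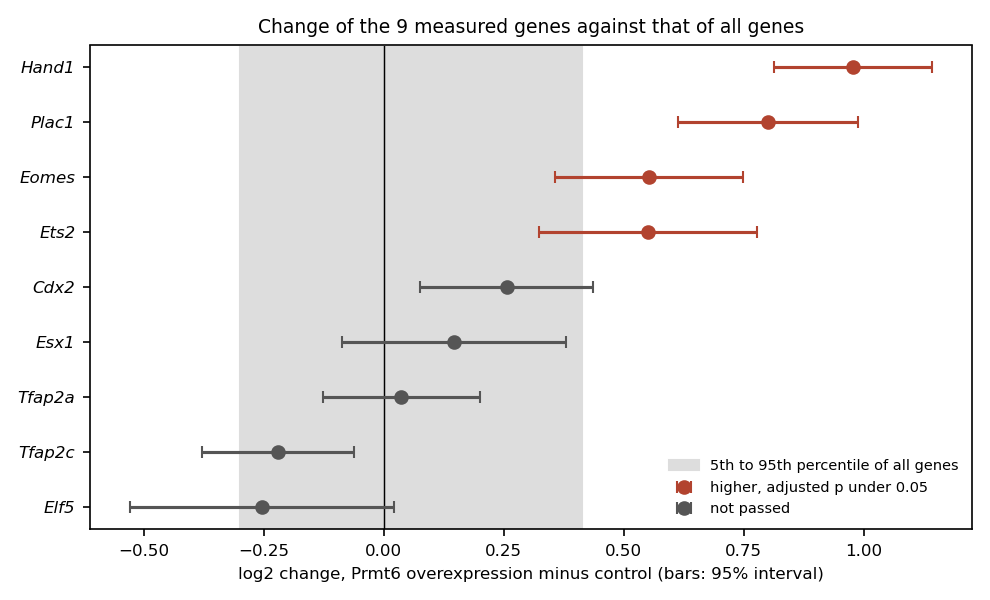
Log2 change of each measured gene, Prmt6 overexpression minus control (horizontal axis), with 95% intervals from limma, and the 5th to 95th percentile of the changes of all genes (-0.30 to 0.41) in grey. The point estimates of Hand1, Plac1, Eomes and Ets2 lie to the right of the grey band, and those of the other 5 genes lie inside it. The intervals of Eomes and Ets2 reach into the band, and those of Cdx2, Tfap2c and Elf5 extend beyond it.

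Promoter windows of the genes that rose, and of Cdx2, are shown to let their sequences be compared. They run from 250 bases before to 50 after a start of transcription (RefSeq, build GRCm38.p6), and 8 of the 10 genes have 1 or more, Hand1 and Tfap2c being those without. They were searched on both strands for CANNTG (the E-box of basic helix-loop-helix factors), GCCNNNGGC (AP-2), GGAATG (TEAD), TTTATNG (CDX), AGGTGTGA (T-box), CCGGAA (ETS), AGATAA (bound by GATA factors), ATGCGGG (bound by GCM factors) and TATAAA (the TATA box). Capitals mark every match, and no matches overlap in these windows.
Eomes, chr9:118477939-118478238, plus strand: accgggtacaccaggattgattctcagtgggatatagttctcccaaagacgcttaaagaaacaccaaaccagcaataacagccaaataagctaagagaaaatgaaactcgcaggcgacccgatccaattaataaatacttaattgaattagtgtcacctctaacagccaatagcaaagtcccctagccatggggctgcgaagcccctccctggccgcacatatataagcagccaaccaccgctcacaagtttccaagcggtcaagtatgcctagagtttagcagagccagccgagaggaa
Ets2, chr16:95702157-95702456, plus strand: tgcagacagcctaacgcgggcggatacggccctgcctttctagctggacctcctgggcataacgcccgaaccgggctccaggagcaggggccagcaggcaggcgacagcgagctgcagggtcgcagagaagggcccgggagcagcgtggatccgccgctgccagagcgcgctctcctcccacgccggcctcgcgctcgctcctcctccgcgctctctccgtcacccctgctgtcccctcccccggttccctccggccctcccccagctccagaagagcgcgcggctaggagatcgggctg
Plac1 upstream start, chrX:53240061-53240360, minus strand: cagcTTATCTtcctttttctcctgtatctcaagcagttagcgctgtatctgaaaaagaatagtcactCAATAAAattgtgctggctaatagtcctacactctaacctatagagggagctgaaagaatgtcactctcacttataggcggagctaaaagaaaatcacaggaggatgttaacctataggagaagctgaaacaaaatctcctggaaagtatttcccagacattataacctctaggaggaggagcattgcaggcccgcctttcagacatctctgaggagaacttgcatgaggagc
Plac1 downstream start, chrX:53114356-53114655, minus strand: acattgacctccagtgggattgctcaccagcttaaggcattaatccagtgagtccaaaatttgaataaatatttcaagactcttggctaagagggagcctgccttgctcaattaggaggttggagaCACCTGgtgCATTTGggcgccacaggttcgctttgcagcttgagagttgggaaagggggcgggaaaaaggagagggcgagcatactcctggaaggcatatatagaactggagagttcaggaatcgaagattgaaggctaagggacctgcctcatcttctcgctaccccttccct
Cdx2, chr5:147307200-147307499, minus strand: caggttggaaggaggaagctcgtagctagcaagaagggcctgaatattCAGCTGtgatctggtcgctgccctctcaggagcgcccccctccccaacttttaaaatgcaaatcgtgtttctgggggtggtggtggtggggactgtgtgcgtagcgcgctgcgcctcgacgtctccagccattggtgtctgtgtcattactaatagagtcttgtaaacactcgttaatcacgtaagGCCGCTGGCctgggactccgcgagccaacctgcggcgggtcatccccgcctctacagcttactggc

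The windows of the genes that rose had no motif in common. Those of Eomes and Ets2 held none of the 9 motifs in these letters. The upstream window of Plac1 held 1 TTTATNG and 1 AGATAA match, which 10.9% and 11.2% of all 32851 windows hold, and its downstream window held 2 E-boxes, a motif found in 72.3% of windows. That of Cdx2 held 1 E-box and 1 GCCNNNGGC match, starting at position -16 from the start of transcription, and 16.6% of windows hold the latter motif. For the others, the share of all windows was 14.7% for GGAATG, 1.28% for AGGTGTGA, 14.9% for CCGGAA, 1.41% for ATGCGGG and 13.6% for TATAAA. Base composition differed widely. The Ets2 window had 71.7% G and C and 30 CpG sites, that of Eomes 47.3% and 10, and those of Plac1 42.7% and 3 upstream and 49.7% and 6 downstream, beside medians of 52.7% and 7 over all windows. Which Plac1 start the cells used was not measured.

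Other factors of trophectoderm and trophoblast stem cells moved both ways. Of 13 measured, 4 rose, 2 fell and 7 did not pass, with a median change of 0.077. For this list and those below, the shares over all genes were 7.05% higher and 3.25% lower. Tead4, the DNA-binding factor upstream of Cdx2 in the trophectoderm, read 6.82, 6.99 and 6.81 in overexpression against 6.21, 6.08 and 6.33 in control and rose by 0.67 ± 0.091 (limma adjusted p = 0.00239). Its coactivator Wwtr1 rose by 0.60 and the DNA-binding protein Arid3a by 0.56, while the coactivator Yap1 was at -0.033 ± 0.071 without passing. Sox21 fell by 0.40 and Sox2, counted with the ES cell markers above as well, by 0.29. Id2 rose by 0.27 (limma adjusted p = 0.0493), a call that ended without any 1 array and with the replicate block (0.127). Gata3, which acts beside Cdx2, was at 0.52 ± 0.15 (adjusted p = 0.0593), and passed with arrays centred on medians (0.57, 0.0410), under quantile normalization (0.55, 0.0409) and without control replicate 3 (0.64, 0.0440). It also passed without the dimmest 30% of genes (0.0259), without those under the median (0.0106), with a trended and robust prior (0.0113) and with array weights (0.0480). Without 1 array, 2 or 3 of the list rose and 1 fell. The Arid3a call ended without overexpression replicate 2 (0.0527) or control replicate 3 (0.0526), and 6 rose with arrays centred on medians.

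Signalling genes of trophoblast had several of the larger rises. Of 16 measured, 6 rose, 2 fell and 8 did not pass, with a median of 0.17. Bmp4, the ligand that turns human pluripotent cells toward trophoblast-like fates in culture, read 8.47, 8.52 and 8.31 in overexpression against 7.19, 7.26 and 7.17 in control. It rose 2.34-fold (1.23 ± 0.08, limma adjusted p = 3.72e-05). Egfr, the epidermal growth factor receptor, rose 2.45-fold, the proprotein convertase gene Furin 2.05-fold, the activin subunit gene Inhba 1.66-fold and Wnt7b, a ligand of placental development, by 0.66. Of the pair through which the embryo sustains trophoblast stem cells, the receptor gene fell and the ligand gene did not pass. The receptor gene Fgfr2 read 7.03, 6.76 and 6.79 in overexpression against 7.30, 7.38 and 7.18 in control and fell by 0.43 ± 0.096 (adjusted p = 0.0264), and the ligand gene Fgf4 was at 0.053 ± 0.072 (0.717). The Fgfr2 call ended without overexpression replicate 2 (0.0930) or 3 (0.0690) or control replicate 1 (0.0915) or 2 (0.0980). The other fall was that of Tdgf1, counted with the ES cell markers above as well. The number of falls in the list was 0 without overexpression replicate 2 or control replicate 1 or 2, 1 without overexpression replicate 3 or control replicate 3, 3 without overexpression replicate 1 and 4 under quantile normalization.

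Among regulators of basic helix-loop-helix factors and of the giant cell cycle, 2 of 11 rose, 1 fell and 8 did not pass (median 0.15). Bhlhe40, a helix-loop-helix repressor that promotes giant cells, read 7.24, 7.20 and 6.87 in overexpression against 5.48, 5.53 and 5.42 in control and rose 3.09-fold (1.63 ± 0.11, limma adjusted p = 3.67e-05). Mdfi, an inhibitor of basic helix-loop-helix factors, rose by 0.32 ± 0.073 (adjusted p = 0.0283), and Plk4, a kinase that phosphorylates Hand1, fell by 0.35 ± 0.079 (0.0261). The Mdfi call ended without any array but overexpression replicate 1 (0.0682 to 0.114). That of Plk4 ended without overexpression replicate 2 (0.0879) or 3 (0.0602), without control replicate 1 (0.0806) or 3 (0.107) and with arrays centred on medians (0.0504). Both calls also ended with the replicate block (0.0713 for Mdfi and 0.0656 for Plk4).

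Of 23 factors and markers of the labyrinth and spongiotrophoblast, 4 rose, 1 fell and 18 did not pass (median 0.12), and the counts were the same without any 1 array. The rises were those of Flt1, a VEGF receptor of spongiotrophoblast (2.33-fold), Cited2, a coactivator needed for placental growth (1.99-fold), the kinase gene Nrk (1.88-fold) and the imprinted growth restrainer Phlda2 (0.46 ± 0.078, limma adjusted p = 0.00736). Rxra, a nuclear receptor of the labyrinth, fell by 0.55 ± 0.10 (adjusted p = 0.00994). The marker Tpbpa, at 0.31 ± 0.10, the spongiotrophoblast factor Ascl2, at -0.06 ± 0.073, and the syncytin genes Syna and Synb, at 0.27 and -0.17, did not pass. Of 15 other placenta-enriched genes 3 rose and 12 did not pass (median 0.10). Igf2, the imprinted fetal growth factor, read 9.78, 9.72 and 9.60 in overexpression against 7.42, 7.49 and 7.53 in control, a 4.66-fold rise. Plet1, a surface protein of trophoblast progenitors, rose 2.05-fold and the imprinted Peg10 1.44-fold.

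Hormone and protease families of the mature placenta gave no calls upward. Of 37 measured genes of the placental prolactin, pregnancy-specific glycoprotein and placental cathepsin families, 0 rose, 2 fell and 35 did not pass in limma, with a median of -0.0033, and 4 were at an unadjusted p under 0.05. The highest change among them was 0.20. Only 2 of the 37 had means above the 30th percentile of gene means and 0 above the median, so most were dim in both groups and a rise in them may not be measurable here. Psg23 fell by 0.52 and Psg20 by 0.40, and neither passed without overexpression replicate 2 or control replicate 3. Without overexpression replicate 1 or control replicate 2 only Psg23 of the pair passed, and without overexpression replicate 3 or control replicate 1 only Psg20. Psg20 has 2 probe sets, the dimmer at -0.023 (adjusted p = 0.912 with every probe set tested), and their mean, at -0.21, did not pass (0.158). With arrays centred on medians or under quantile normalization, 0 rose, 1 fell and the median was 0.043 or 0.023. Copies in these families resemble each other, so single members are uncertain. All 4 simple epithelial keratins, which trophoblast shares with many epithelia, rose by 2.34 to 3.22, Krt18 the most.

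**Figure D3:**
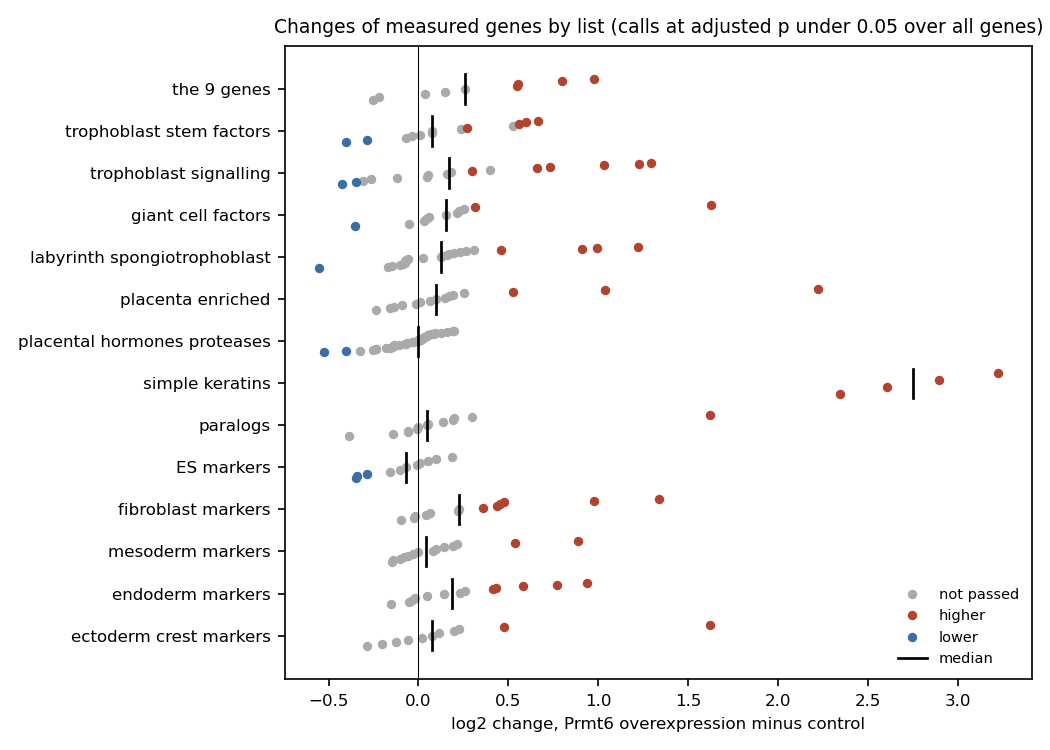
Log2 change, Prmt6 overexpression minus control (horizontal axis), of each measured gene in the 9 trophoblast genes and in 13 other lists, with a vertical bar at each list's median and colours for calls at adjusted p under 0.05 over all genes. The hormone and protease families range from -0.52 to 0.20, and the 4 keratins lie at 2.34 or above.

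Of 13 measured paralogs of the 9 genes, Ets1 rose and 12 did not pass (median 0.047), a share of rises near the 7.05% of all genes. Ets1, the nearest relative of Ets2, read 6.83, 6.83 and 6.93 in overexpression against 5.10, 5.43 and 5.19 in control, a rise of 1.62 ± 0.097 (limma adjusted p = 2.15e-05). Cdx1 and Cdx4, relatives of Cdx2, were at 0.14 ± 0.11 and 0.30 ± 0.12 (adjusted p = 0.492 and 0.175). Hand2, the relative of Hand1 and like it a gene of heart and mesoderm, was at -0.06 ± 0.14 (0.847), and at 0.097 without overexpression replicate 1.

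Some markers of other cell types moved in the same arrays, where 7.05% of all genes were called higher and 3.25% lower. Of 13 fibroblast markers 6 rose, 0 fell and 7 did not pass (median 0.22). The collagens Col1a1 (1.34) and Col1a2 (0.98) rose most, then Pdgfrb (0.47) and Twist2 (0.45). Those not passing were Twist1 (0.22), Postn (0.22), Thy1 (0.043), Lum (0.063), Fap (-0.023), S100a4 (-0.017) and Prrx1 (-0.097). The summed linear signal of the 13, Col1a1 and Col1a2 included, was 776 to 833 in overexpression against 513 to 552 in control. The Twist2 call ended without any 1 array but overexpression replicate 1 (limma adjusted p from 0.0706 to 0.135). That of Pdgfrb ended without control replicate 1 (0.0567). Of 14 extraembryonic endoderm markers 5 rose, 0 fell and 9 did not pass (median 0.19). Among the rises were Cubn (0.94), Dab2 (0.77 on the brighter of its 2 probe sets), Sox17 (0.58) and Gata6 (0.43). The 9 not passing were Gata4 (0.26), Lama1 (0.23), Ttr (0.14), Foxa2 (0.047), Hnf4a (-0.017), Sox7 (-0.023), Afp (-0.04), Apoa1 (-0.05) and Amn (-0.15). The sums were 882 to 930 in overexpression against 748 to 768 in control. Of 14 primitive streak and mesoderm markers, a list without Eomes and Hand1, 2 rose, 0 fell and 12 did not pass (median 0.042). Tbx20 rose by 0.89 and Mixl1 by 0.54, while those not passing ran from -0.15 for Gsc to 0.22 for Fgf8. The sums overlapped at 731 to 848 in overexpression and 709 to 739 in control. Of 11 surface ectoderm and neural crest markers 2 rose, Ets1 and Krt14, 0 fell and 9 did not pass (median 0.073). Those not passing ran from -0.29 for Snai2 to 0.23 for Pax3, with Sox10 at 0.12 and Krt5 at -0.20. The sums, which include Ets1 with its rise of 1.62, were 575 to 650 in overexpression against 479 to 507 in control. The values are log2 signals used without detection calls, so absence of a marker cannot be read from them. The part of these cell types in the rises of Hand1, Plac1, Eomes and Ets2 was not tested. Without 1 array, 2 to 5 fibroblast and 3 to 5 endoderm markers rose, the fewest without control replicate 1 (2 fibroblast) and without control replicate 1, 2 or 3 (3 endoderm). The dimmer Dab2 probe set, tested on its own, was at 0.20 and did not pass (adjusted p = 0.272), while the mean of the 2, at 0.48, did. The Sox17 call ended without any 1 control array (adjusted p from 0.0634 to 0.0869).

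**Figure D4:**
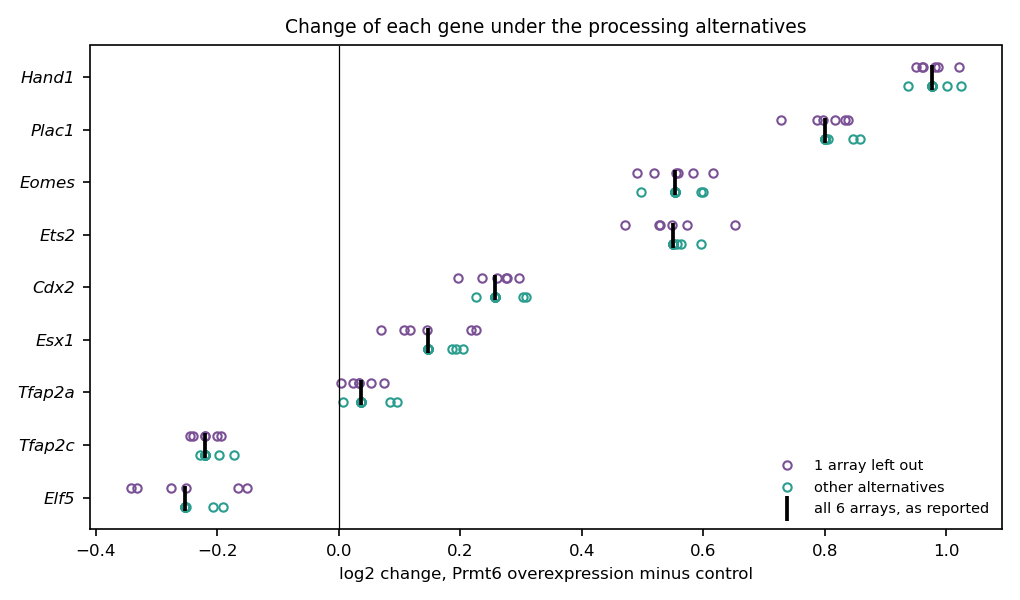
Log2 change of each measured gene (horizontal axis) with all 6 arrays (bar), with 1 array left out (upper open circles) and under the other processing alternatives (lower open circles). Hand1 ranges from 0.94 to 1.02 and Plac1 from 0.73 to 0.86, and no gene crosses 0.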

How the data were processed

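RNA of 6 samples was hybridised to 1 Affymetrix array each, from 5 ug of total RNA. The values deposited are log2 signals made with RMA (robust multi-array average), as the submitters' processing notes say. The version and settings of RMA are not given. RMA as commonly run equalizes the distributions of arrays, so a change shared by most genes is largely removed. The medians of the deposited arrays still differed slightly, at 5.54 to 5.59 in overexpression and 5.6 to 5.62 in control. No depth exists for arrays, and their number limits the precision.

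Names came from the platform annotation of 2016, in which 21789 of 35556 probe sets had 1 symbol, 1621 several and 12146 were not named here. Where a gene had several single-symbol probe sets, that of highest mean was taken. The contrast of overexpression and control used limma 3.58.1 in R 4.3.3 (two-sided, constant prior, no filter), with Benjamini-Hochberg adjustment over 19938 genes, a threshold of 0.05 and 95% intervals. The procedure was tested on simulated data. No columns were left unmatched and no arrays had identical values. Figures used matplotlib 3.10.9.

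The members and lists were chosen with earlier results of these data known, so counts over them are descriptions. Named genes are the 10 members, Prmt6, up to 4 passing genes with the largest change in each list, and neighbours that passed. The neighbours of the members that rose are given as well, outside this rule, and none of them passed. Others (Fgfr2, Fgf4, Wnt7b, Gata3, Yap1, Id2, Phlda2, Cdx1, Cdx4, Hand2, Ascl2, Tpbpa, Syna, Synb, Pou5f1 and markers of other cell types that did not pass) were chosen after their values were seen. As alternatives, the fit was repeated with a replicate block, without each array, with 2 filters on dim genes, centring on medians, quantile normalization, the mean of probe sets, every probe set, a trended and robust prior, array weights and a threshold of 0.01.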

Additional observations from a re-analysis of the deposited data

How the results depend on the processing

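Hand1, Plac1, Eomes and Ets2 were called higher under every alternative in which they were tested, and no member changed sign. The members called higher numbered 4 to 4 and those lower 0 to 0 with 1 array left out, and 5 were called higher, with Cdx2 added, under both other scalings and with the 30th-percentile filter. Of the members, 1 (Tfap2c) was called lower with the 30th-percentile filter, with the median filter and with the trended and robust prior. The median filter left 4 members to test, since Plac1, Cdx2, Tfap2a, Esx1 and Elf5 lie under it. Over all genes, 1405 rose and 647 fell. With 1 array left out, rises ranged from 862 to 1232 and falls from 280 to 763. Falls numbered 990 with the 30th-percentile filter, 1079 with the median filter, 1115 with the trended and robust prior and 1098 with array weights. At a threshold of 0.01 there were 765 rises and 219 falls. The causes of these shifts were not tested. The settings differ from the main fit by fewer arrays, fewer genes or a stricter threshold, except the prior and array weights, which kept all arrays and genes.

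Replicate numbers do not mark shared material in the labels, and deviations of arrays with the same number correlated at -0.019, -0.016 and -0.12 across genes. With the replicate block, 1018 genes rose and 383 fell, and 4 members rose and 0 fell. Centring arrays on medians moved the median change of all genes to 0.047, and quantile normalization moved it to 0.024.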

Other observations

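The measured genes next to each member on its chromosome (order from GRCm38.p6) were read as well. Of 18 such neighbours, 1 rose, 0 fell and 17 did not pass in limma, a share of rises near the 7.05% of all genes. The riser was Fam199x beside Esx1, which read 6.11, 6.04 and 6.17 in Prmt6 overexpression against 5.67, 5.82 and 5.74 in control (0.36 ± 0.076, limma adjusted p = 0.0186), while Esx1 itself did not pass. That call ended without control replicate 1 (0.0876) or 3 (0.0712), without overexpression replicate 3 (0.0503) and with the replicate block (0.0615). Beside the members that rose, Sap30l and Larp1 next to Hand1 were at 0.24 ± 0.11 and -0.12 ± 0.085, Cmc1 and Golga4 next to Eomes at 0.14 ± 0.076 and -0.06 ± 0.067, Erg and Psmg1 next to Ets2 at -0.0033 ± 0.09 and 0.09 ± 0.075, and Mir542 and Fam122b next to Plac1 at -0.13 ± 0.12 and -0.26 ± 0.084, without passing.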
